A study of Mus musculus with 14 samples.

Results

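The genes described here are 10 imprinted genes of the mouse brain, Meg3, Rian, Dlk1, Snrpn, Ndn, Magel2, Mest, Nnat, Peg3 and Kcnq1ot1. They were taken by symbol, with earlier results of these data known, and all 10 were among the 17927 genes with deposited counts. RNA-SEQ was performed on whole brains taken at postnatal day 2 (P2) from 7 WT and 7 Capn15 KO mice of 6 litters, and no treatment was given. Capn15 encodes calpain 15, an intracellular cysteine protease, and the comparison of the genotypes asked which mRNAs change in abundance when it is lost. The lines were made on C57BL/6J, and the methods describe both a Capn15(lacZ-Neo) and a floxed mouse, while the labels give the genotype of each brain only as WT or KO. The litters are written A to F, as in the column names of the counts. Litter B gave 2 WT and 2 KO brains and each other litter gave 1 of each, and 6 brains were female and 8 were male. Of the WT brains 2 were female and 5 male, and of the KO brains 4 were female and 3 male. In litters A, B and E the WT brains were male and the KO brains female, in litters C and D this was reversed, and only in litter F were both male. A difference between littermates of the 2 genotypes was therefore also a difference between the sexes outside litter F, and only the fit with sex as a term separates them.

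Imprinted genes are expressed mainly from the copy inherited from 1 parent, because DNA methylation set in the egg or the sperm marks their control regions. They lie in clusters in which long noncoding RNAs and protein coding genes of opposite parental origin often share a control region, and many of them act on growth, hypothalamic function and neuronal development. The counts add the reads of both parental copies, so they give the amount of RNA of a gene and not its parent of origin.

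The libraries held between 37620954 and 70910163 counts, of which the 10 genes together took between 0.405% and 0.541%. Dlk1 in the WT brain of litter A had the smallest count of any of these genes, 278, or 6.44 per 1000000 counts with a 95% Wilson interval from 5.72 to 7.24. Such intervals leave out the spread between brains. They are too narrow even for counting error where PCR copies of a read were counted, since copies are not independent molecules. Capn15 itself lay between 12.2 and 14.5 CPM (counts per 1000000, scaled with TMM factors) in the libraries labelled KO of litters A to E and between 25.0 and 27.3 CPM in the WT libraries of those litters. In litter F the library labelled KO held 20.2 CPM and the library labelled WT held 18.7 CPM, so that this pair goes against its labels. In the fit with litter and sex as variables Capn15 itself did not pass, with a log2 fold change (KO minus WT) of -0.81 (SE 0.12, adjusted p 0.0747 in edgeR's quasi-likelihood test), while without litter F it was -0.98 (SE 0.057, adjusted p 1.58e-06). The labels name neurons as the cell type, but markers of radial glia and astrocytes, the oligodendrocyte lineage, microglia, endothelium, red blood cells, choroid plexus and leptomeninges were all present in the counts, as in a whole brain, and none of 6 pituitary markers was. The counts had been filtered before deposit, so a gene absent from them may still have had reads. The 7 replicates of a genotype are separate brains.

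The level of the genes spanned more than 3 orders of magnitude. Per kilobase of annotated exon and 1000000 counts (RPKM, the scale on which different genes can be set beside each other), Nnat was highest in the WT brains with a mean of 799.9 and a range of 618.8 to 1180.3. Nnat encodes neuronatin, a small membrane protein of the endoplasmic reticulum, and its mean lay above that of 99.9% of all genes. Snrpn followed with a mean of 220.6 RPKM (range 201.9 to 247.2) and Ndn with a mean of 108.3 RPKM (range 91.1 to 122.7). Ndn was scaled by its GENCODE exon of 3694 bases. All 250 bases before its RefSeq start lie inside that exon. A shorter annotated exon would give Ndn a higher RPKM, so its distance from Snrpn depends on the annotation. The noncoding RNA Rian came next at 58.1 RPKM (range 55.4 to 62.7).
Peg3 at 31.3 RPKM (range 29.1 to 33.6) and Meg3 at 29.1 RPKM (range 21.3 to 36.9) had overlapping ranges over the WT brains. Which of them was higher changed from brain to brain. The range of Mest, with a mean of 19.4 RPKM (range 14.5 to 24.6), overlapped that of Meg3 too, but within each WT brain Meg3 lay above Mest. The lower end was held by Magel2 at 5.17 RPKM, Dlk1 at 1.66 RPKM and Kcnq1ot1 at 0.447 RPKM, whose single exon is annotated over 93092 bases. The KO brains gave the same order, and there only Peg3 and Meg3 overlapped.

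**Figure D1:**
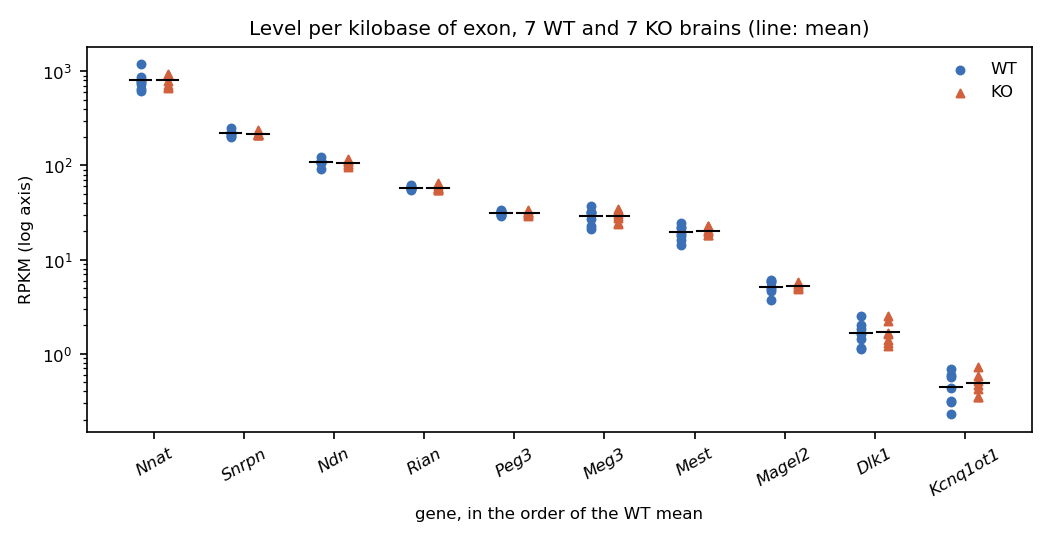
The plot gives RPKM on a log axis for each gene in 7 WT brains (circles) and 7 KO brains (triangles), with the mean as a line. WT means ran from 799.9 RPKM for Nnat to 0.447 RPKM for Kcnq1ot1, and the WT and KO points of every gene overlapped.

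None of the 10 genes was called between WT and KO brains in a fit that did not call the targeted gene either. With litter and sex as variables in the fit, edgeR's quasi-likelihood test put 0 of 10 under a Benjamini-Hochberg adjusted p (FDR) of 0.05, where 0.00558% of all genes did, and 0 of 10 had an unadjusted p under 0.05, where 5.14% of all genes did. By the other tools, DESeq2 called 22 genes and the likelihood ratio test 34 genes, again with none of the 10 among them. The FDR was 0.99996 for each of the 10 genes. The WT and KO ranges overlapped for all 10. An exact permutation test over the 3432 regroupings of 7 against 7 brains (two-sided, smallest possible p 0.000583) gave p values of 0.469 or more. These regroupings take no account of litter or sex, so that litter adds to the spread they compare with, and for Mest the fit gave an unadjusted p of 0.0758 where they gave 0.469. The median log2 fold change (KO minus WT) was 0.0090 over the 10 genes and 0.0015 over all genes. Without litter F, where Capn15 was called, 7 genes were called in all (0.039% of all genes) and none of the 10, with log2 fold changes of -0.013 for Rian, -0.024 for Snrpn, -0.0097 for Ndn and 0.0025 for Nnat, and those of the other genes are given with them below. The 6 choroid plexus markers summed to between 740 and 975 CPM in WT and between 607 and 844 CPM in KO brains, and edgeR gave 5 of these markers an unadjusted p below 0.05, with a median log2 fold change of -0.22. Ttr, the most abundant of them, was lower in the KO brain in 7 of 7 pairs, with a log2 fold change of -0.32 and an adjusted p of 0.0942, and it passed by DESeq2 (adjusted p 0.00949), by the likelihood ratio test (3.72e-05) and without litter F in edgeR's test (0.0485). Other marker lists moved too. In edgeR's test 3 of 12 Hox genes of the hindbrain and spinal cord had an unadjusted p below 0.05, with a median log2 fold change of -0.32. These 12 summed to between 22.9 and 45.4 CPM in WT and between 9.8 and 52.1 CPM in KO brains. Such a p was also held by 2 of 6 leptomeninges and 1 of 6 endothelium markers, and by none in the other lists. The part of the choroid plexus and of these lists in the values of the 10 genes was not tested. The 2 widest intervals, those of Kcnq1ot1 and Meg3, still allow changes that the others do not, as given with each gene below. In bulk RNA, fewer cells of a type and less RNA per cell cannot be told apart.

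**Figure D2:**
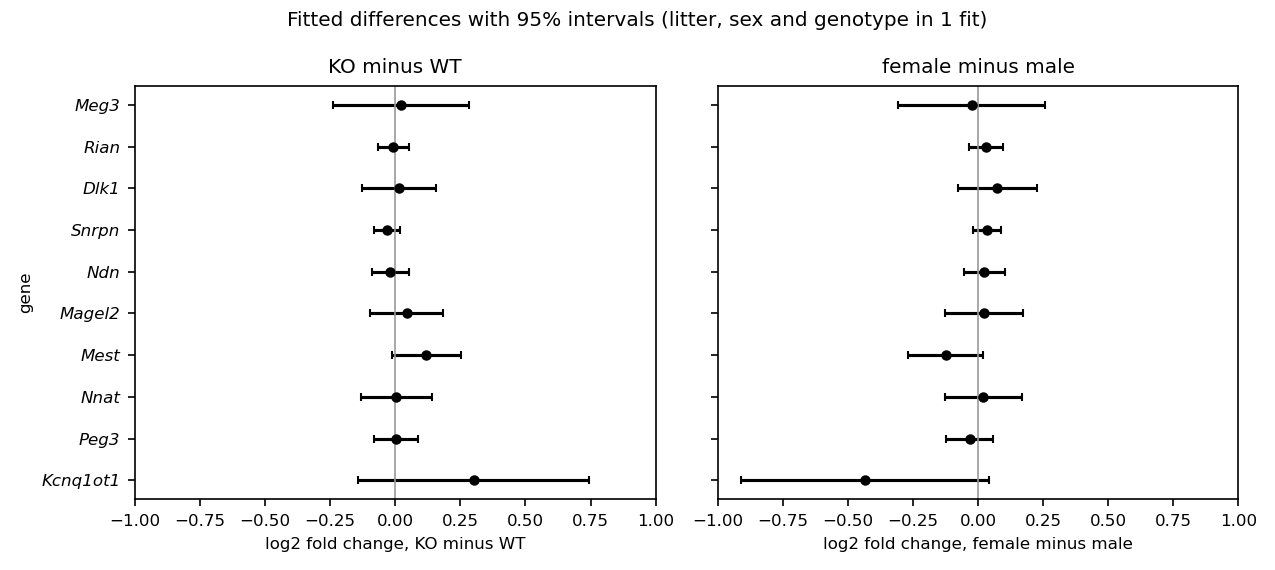
The points are fitted log2 fold changes, KO minus WT on the left and female minus male on the right, with 95% intervals as bars. Every interval crossed 0, and the widest were those of Kcnq1ot1 at 0.30 for genotype and -0.43 for sex.

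Meg3, Rian and Dlk1 belong to the Dlk1-Dio3 domain on chromosome 12. Meg3 and Rian are long noncoding RNAs made from the maternal copy, and Rian is the host of a large set of small nucleolar RNAs. Dlk1 encodes a transmembrane protein related to Notch ligands, made from the paternal copy and known for its part in growth and in the postnatal neurogenic niche. Meg3 (chr12:109541001-109571726, GRCm38, plus strand) was at 385 CPM in the lowest, 572 CPM in the median and 668 CPM in the highest WT brain, and at 437, 519.6 and 623 CPM in the KO brains. The KO range lay inside the WT range. Of its exon bases 8.29% are shared with other annotated genes, mostly on the opposite strand. The fitted log2 fold change was 0.022 (SE 0.12), with a 95% interval from 0.847-fold to 1.22-fold, and without litter F it was -0.054. Rian (chr12:109603940-109661716, plus strand) ran from 1010.3 through 1051 to 1142 CPM in WT and from 1010.8 through 1046 to 1173 CPM in KO brains. These are nearly equal ranges, and the highest brain lay only 1.16-fold above the lowest. For Rian the log2 fold change was -0.0077 (SE 0.028), with an interval from 0.954-fold to 1.04-fold.

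Dlk1 (chr12:109452823-109463336, plus strand) ran from 6.29 through 9.16 to 14.2 CPM in WT and from 6.88 through 9.15 to 14.2 CPM in KO brains. The highest brain of either genotype came from litter B, and the lowest from litter A or F. The genotypes differed by a log2 fold change of 0.014 (SE 0.067), with an interval from 0.915-fold to 1.12-fold, and without litter F it was -0.023. The other genes measured in the domain were Begain, Rtl1, Mirg and Dio3, and 0 of these 4 was called between genotypes in either direction. Rtl1, a retrotransposon-derived gene of the paternal copy, had 2.18 ± 0.370 CPM in the WT and 2.50 ± 0.257 CPM in the KO brains (SD, n = 7 each), with a log2 fold change of 0.23 and an unadjusted p of 0.0545 in edgeR's test. The RefSeq window of Dlk1, which runs from 250 bases before the start of the gene to 50 after it, held 9 CpG, more than 53.9% of all 32544 such windows, whose median was 7. The bases before the start, chr12:109452573-109452822 (GRCm38.p6, plus strand), are shown because Dlk1 had the clearest difference between litters of the 10, and capitals mark CpG, the site of DNA methylation. Methylation was not measured, and these bases are not shown as a control region of the domain. Their part in the litter difference was not tested.
Dlk1: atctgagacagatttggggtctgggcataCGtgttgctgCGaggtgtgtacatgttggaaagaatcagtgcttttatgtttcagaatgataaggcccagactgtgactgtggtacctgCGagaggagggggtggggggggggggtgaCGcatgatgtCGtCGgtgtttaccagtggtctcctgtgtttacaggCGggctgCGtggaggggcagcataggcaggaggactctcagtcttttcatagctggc
None of these 250 bases is annotated as exon in GENCODE M21.

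Snrpn, Ndn and Magel2 lie on chromosome 7 in the domain whose human counterpart is lost in Prader-Willi syndrome, and all are made from the paternal copy. Snrpn encodes SmN, the neuronal form of a core splicing protein. Snrpn (chr7:59982495-60140219, minus strand) ran from 436 through 471 to 534 CPM in WT and from 456 through 462 to 509.99 CPM in KO brains. The highest brain of either genotype was that of litter F. The log2 fold change of Snrpn was -0.031 (SE 0.023), with an interval from 0.945-fold to 1.01-fold. Of its exon bases 27.3% are shared on the same strand with annotated genes, chiefly the read-through gene Gm38393 with 589 bases, so reads there could be assigned to more than 1 gene and its level is uncertain. Snrpn and its close relative Snrpb shared 0 of the 50-base stretches of their transcripts. The window of Snrpn with the most CpG held 7, equal to the median window. The bases before its start, chr7:60005200-60005449 (GRCm38.p6, minus strand), are shown because this window has the fewest CpG among the genes that differed between litters, again with CpG in capitals.
Snrpn: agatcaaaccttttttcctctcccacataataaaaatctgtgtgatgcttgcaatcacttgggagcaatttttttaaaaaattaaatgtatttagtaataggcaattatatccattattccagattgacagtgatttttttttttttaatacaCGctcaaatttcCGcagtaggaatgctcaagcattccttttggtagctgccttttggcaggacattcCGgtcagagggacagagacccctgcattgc
They overlap no annotated exon.

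Ndn and Magel2 are neighbours of the MAGE family. Ndn encodes necdin, which restrains growth in postmitotic neurons, and Magel2 acts in the recycling of membrane proteins and is mainly hypothalamic. Ndn (chr7:62346569-62350262, plus strand) ran from 336 through 399 to 453 CPM in WT and from 355 through 398 to 434 CPM in KO brains. The lowest brain of each genotype was that of litter A. Between genotypes Ndn differed by -0.019 on the log2 scale (SE 0.034), with an interval from 0.939-fold to 1.04-fold. Magel2 (chr7:62377010-62381640, plus strand) ran from 17.1 through 23.9 to 28.0 CPM in WT and from 22.7 through 24.5 to 27.1 CPM in KO brains. The single low value was the WT brain of litter F. That of Magel2 was 0.044 (SE 0.065), with an interval from 0.936-fold to 1.14-fold, and without litter F it was -0.020. Ndn and Magel2 shared 0 of the 50-base stretches of their transcripts. The other genes of the domain in the counts were Mkrn3, Peg12, Snhg14, Ube3a and Atp10a, and none of these 5 was called between genotypes. Ube3a, the ubiquitin ligase made from the maternal copy in neurons, had 229 ± 8.87 CPM in the WT and 232 ± 8.30 CPM in the KO brains (SD, n = 7 each), and Snhg14, the noncoding transcript that runs antisense to it, was at 175 ± 9.13 and 173 ± 13.1 CPM.

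Mest, Nnat and Peg3 are protein coding genes of the paternal copy in separate domains. Mest encodes a hydrolase-like protein of the endoplasmic reticulum and is linked to growth. Mest (chr6:30723547-30748465, plus strand) ran from 57.0 through 73.8 to 97.0 CPM in WT and from 71.6 through 80.1 to 89.7 CPM in KO brains. The KO brains lay inside the wider WT range. Its log2 fold change was 0.12 (SE 0.062, unadjusted p 0.0758 in edgeR's test), with an interval from 0.990-fold to 1.19-fold, and it was higher in the KO brain in 4 of 7 pairs. The log2 fold change was 0.056 without litter F, 0.197 without either library of litter D and 0.068 with genotype alone. Of its exon bases 23.1% lie opposite exons of Copg2, so without a stated strand setting reads of both genes cannot be told apart. Copg2 itself was at 88.3 ± 3.69 CPM in WT and 87.5 ± 5.13 CPM in KO brains (SD, n = 7 each). The most CpG-rich window of Mest held 17 CpG, more than 68.4% of all windows. Its upstream bases, chr6:30737800-30738049 (GRCm38.p6, plus strand), are shown as the CpG-rich case, with CpG in capitals.
Mest: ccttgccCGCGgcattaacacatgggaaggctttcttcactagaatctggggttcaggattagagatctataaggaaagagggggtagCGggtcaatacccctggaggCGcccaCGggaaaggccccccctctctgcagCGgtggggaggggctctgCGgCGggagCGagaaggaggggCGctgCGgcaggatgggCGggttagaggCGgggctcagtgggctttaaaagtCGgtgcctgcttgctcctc
They overlap no annotated exon, and the whole window held the hexamer TGCCGC, counted on both strands and bound by ZFP57 when methylated, at 2 places. Of the 10 genes 4 (Meg3, Snrpn, Mest and Nnat) had that hexamer in their most CpG-rich window, beside 11.7% of all windows, and 8 had more CpG than the median window. Meg3, Snrpn and Mest had several windows and the richest was taken, while all windows were counted without such a pick. Since the hexamer itself holds a CpG, the pick can raise both counts, and they are no test against all windows. The core of the YY1 motif (GCCAT, any base, then TT) was counted on both strands too and was in 6.08% of all windows and in 0 of these 10. Such matches are letters in a window and not measured binding.

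Nnat (chr2:157560078-157562522, plus strand), which lies within the span of Blcap on the opposite strand, ran from 1132 through 1419.9 to 2159 CPM in WT and from 1202 through 1429 to 1705 CPM in KO brains. The highest WT brain stood well above the next. The log2 fold change between genotypes was 0.0035 (SE 0.063), with an interval from 0.912-fold to 1.10-fold, and Blcap was at 150.4 ± 9.36 and 152 ± 12.7 CPM (SD, n = 7 each). Peg3, a zinc finger protein tied to maternal behaviour and growth, sits at chr7:6703892-6730431 on the minus strand. It ran from 388 through 409.9 to 448 CPM in WT and from 383 through 417 to 444 CPM in KO brains, a narrow spread in both. Peg3 differed between genotypes by 0.0026 on the log2 scale (SE 0.039), with an interval from 0.946-fold to 1.06-fold, and without litter F it was -0.016. Usp29 and Zim1, the other genes of the Peg3 domain in the counts, were not called either.

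Kcnq1ot1 (chr7:143203458-143296549, minus strand) is a long unspliced nuclear RNA of the paternal copy, known for silencing its neighbours in cis, among them the cell cycle inhibitor Cdkn1c. It ran from 21.3 through 40.0 to 64.4 CPM in WT and from 32.3 through 43.6 to 67.5 CPM in KO brains, the widest spread of the 10 at 3.16-fold between its lowest and its highest brain. Its log2 fold change was 0.30 (SE 0.21, unadjusted p 0.168 in edgeR's test), with an interval from 0.906-fold to 1.67-fold. It was higher in the KO brain in only 3 of 7 pairs, which were those of litters C, E and F, of which C and E differed in sex too. The log2 fold change moved with single litters, to 0.11 without litter F, 0.093 without either library of litter C and 0.70 without either library of litter D (adjusted p 0.319 or more), and it was 0.13 with genotype alone and 0.17 with litter but not sex. Of its exon bases 1.20% lie opposite other annotated genes, among them Kcnq1. In litter C it was at 28.3 CPM in the WT female and 67.5 CPM in the KO male, and in litter F at 21.3 CPM in the WT and 54.7 CPM in the KO male. Cdkn1c was at 50.2 ± 6.50 CPM in WT and 48.1 ± 6.45 CPM in KO brains (SD, n = 7 each), and 0 of the 8 other genes of this domain in the counts was called between genotypes.

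The spread that remained after litter, sex and genotype separated the genes. As a biological coefficient of variation it was 24.7% for Kcnq1ot1, above 97.0% of all genes, and 15.1% for Meg3, above 88.0% of them. The other noncoding RNA, Rian, had 4.38%, and Snrpn was lowest with 3.67%, above only 7.21% of all genes, whose median was 5.41%. Brains of the same litter could therefore differ in Kcnq1ot1 and Meg3 while they were alike in Snrpn. In litter E, Meg3 was at 385 CPM in the WT and 623 CPM in the KO brain, and in litter B the WT brains held 668 and 574 CPM and the KO brains 437 and 446 CPM. The order of the WT males and the KO females thus turned between these litters.

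Sex did not separate the genes either. In the same fit 0 of 10 passed the FDR of 0.05 between females and males, where 0.0669% of all genes did, and 0 of 10 had an unadjusted p under 0.05, where 5.04% of all genes did. The median log2 fold change (female minus male) was 0.021 over the 10 and 0.0021 over all genes. Kcnq1ot1 had the largest difference, with 38.6 ± 7.25 CPM (SD, n = 6) in females and 47.2 ± 17.3 CPM (SD, n = 8) in males. Its log2 fold change was -0.43 (SE 0.22, unadjusted p 0.0706, FDR 0.927 in edgeR's test), and with 1 library left out it ran from -0.88 without a library of litter D (lowest FDR 0.143) to -0.20 without a library of litter C. The other 9 genes lay between -0.12 for Mest and 0.074 for Dlk1.

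The level of several of the genes differed between litters. In the joint test of the litter terms, edgeR put 5 of 10 under the FDR of 0.05, where 29.6% of all genes were. The 5 were Dlk1, Nnat, Snrpn, Ndn and Mest, and the remaining Magel2 (FDR 0.079), Rian (0.0934), Kcnq1ot1 (0.446), Peg3 (0.484) and Meg3 (0.844) did not pass. Litters took a median of 66.2% of the sum of squares of log2 CPM over the 10 genes and 60.7% over all genes.

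Dlk1 had the lowest FDR of the 10, 8.51e-05 in edgeR's test. Its values were 6.45 and 6.88 CPM in litter A, 11.3, 12.5, 14.2 and 14.2 CPM in litter B, 9.15 and 10.4 CPM in litter C, 7.85 and 8.03 CPM in litter D, 9.16 and 9.51 CPM in litter E and 6.29 and 7.43 CPM in litter F. All 4 brains of litter B, WT and KO, were above every other brain. The litter B mean of 13.1 CPM was 1.96-fold that of litter A, and litters took 93.6% of the sum of squares.

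Nnat followed with an FDR of 0.00237. It was at 1132 and 1247 CPM in litter A, 1572, 1682, 1705 and 2159 CPM in litter B, 1429 and 1429 CPM in litter C, 1303 and 1336 CPM in litter D, 1419.9 and 1665 CPM in litter E and 1195 and 1202 CPM in litter F. Litter B was again highest, though its lowest brain lay below the KO brain of litter E, and the mean of litter B was 1.496-fold that of litter A. Across the 14 brains Dlk1 and Nnat had the highest Pearson r of all 45 pairs of the 10 genes, 0.924, a description over littermates that share their litter's level.

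Ndn (FDR 0.0105) was at 336 and 355 CPM in litter A, 399, 422, 434 and 453 CPM in litter B, 381 and 415 CPM in litter C, 399 and 416 CPM in litter D, 398 and 409.98 CPM in litter E and 372 and 389 CPM in litter F. Here litter A stood low, and the litter B mean of 427 CPM was 1.24-fold that of litter A. Without the WT brain of litter A the FDR of Ndn was 0.103. Mest (FDR 0.0138) had its highest litter mean in litter B at 88.0 CPM and its lowest in litter E at 67.6 CPM, 1.30-fold apart, with single brains from 57.0 CPM in litter F to 97.0 CPM in litter B.

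Snrpn (FDR 0.00699) was turned the other way. It was at 469 and 471 CPM in litter A, 436, 446, 456 and 458 CPM in litter B, 456 and 469.8 CPM in litter C, 469.9 and 494 CPM in litter D, 462 and 483 CPM in litter E and 509.99 and 534 CPM in litter F. Litter F was above every other brain, and litter B was lowest, the litter F mean of 522 CPM being 1.16-fold that of litter B. The call rested on litter F, since the FDR was 0.0655 without its WT brain and 0.230 without both of its brains.

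Litter B has 4 brains where the others have 2. Without its 4 libraries, a fit of the 10 others chosen after the data had been seen, 196 genes were called between the remaining litters (1.09% of all genes), and of the 10 genes Nnat kept its call (FDR 0.0142), while Dlk1 was at 0.0593, Ndn at 0.140, Snrpn at 0.207 and Mest at 0.215. Markers of several cell types moved with litter B too. The summed level of the 6 oligodendrocyte lineage markers was 334 CPM in litter B and between 396 and 543 CPM in the other litters with litter F highest, that of the 6 radial glia and astrocyte markers was 1500 CPM against 1646 to 1855 CPM, and that of the 6 red blood cell markers was 247 CPM against 33.5 to 175 CPM. Of these lists 6 of 6, 4 of 6 and 6 of 6 genes were called between litters. The neuron markers summed to 6330 CPM in litter B and 6450 to 6715 CPM elsewhere (4 of 6 called). Microglia markers summed to 88.3 CPM against 95.3 to 104.7 CPM (2 of 6 called), and leptomeninges markers to 291 CPM against 235 to 286 CPM (2 of 6 called). For endothelium (5 of 6 called) and choroid plexus (4 of 6 called) litter B lay within the other litters. The 12 Hox genes of the hindbrain and spinal cord summed to 47.1 CPM in litter B and 25.0 to 35.8 CPM elsewhere (4 of 12 called). The 7 hypothalamic markers summed to 19.98 CPM against 15.6 to 20.3 CPM (3 of 7 called), with Agrp not among the counted genes. Over all genes 29.6% were called between litters. The part of these cell types and regions in the litter differences of the imprinted genes was not tested.

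**Figure D3:**
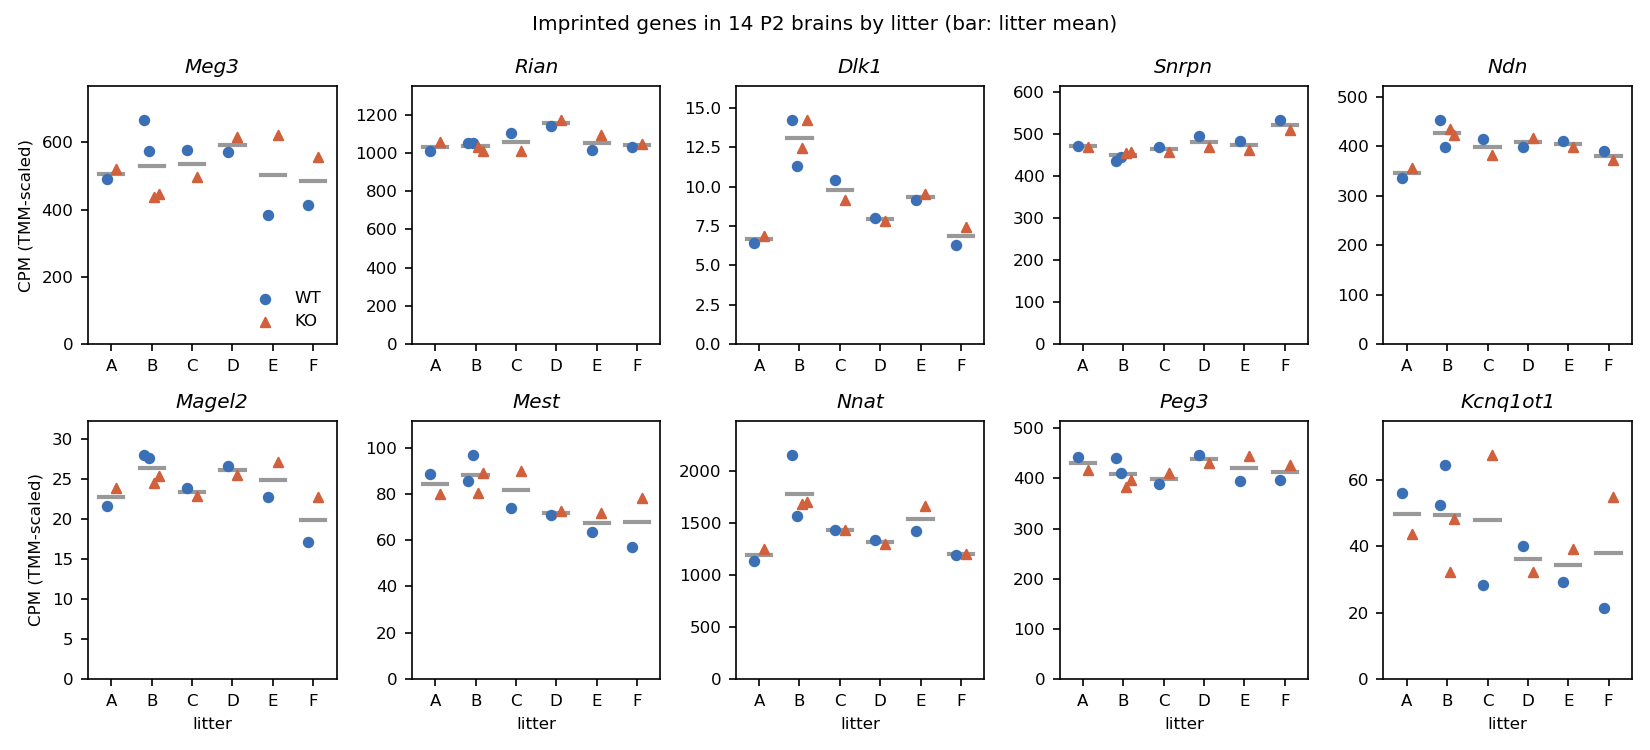
Each panel gives the TMM-scaled CPM of 1 gene from 0 upward by litter, with WT brains as circles, KO brains as triangles and the litter mean as a grey bar. The 4 litter B brains were above all others for Dlk1 (11.3 to 14.2 CPM), litter F was above all others for Snrpn, and Kcnq1ot1 and Meg3 were scattered within litters.

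Beyond these 10, 50 further imprinted genes from a list of 70 were measured. Between genotypes 0 of the 60 imprinted genes were called, where 0.00558% of all genes were, and the median log2 fold change was 0.0060. An unadjusted p under 0.05 in edgeR's test was held by 3 of the 60, about the share of all genes (5.14%). The 3 were Plagl1, a zinc finger gene of growth control, at 0.12 (SE 0.042, unadjusted p 0.0104, higher in the KO brain in 7 of 7 pairs, 6 of which differed in sex, as 1.09% of all genes were in 1 direction or the other), Zdbf2 at 0.070 (SE 0.029, p 0.0287) and Nap1l5 at -0.074 (SE 0.029, p 0.0211), all by edgeR's quasi-likelihood test. Between sexes 0 of the 60 were called.

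Between litters 22 of the 60 imprinted genes (36.7%) were called, and 17 of the 50 outside the 10 (34.0%), beside 29.6% of all genes. The largest difference was that of H19, the maternally expressed noncoding RNA next to Igf2, whose mean ran from 54.0 CPM in litter D to 146 CPM in litter B (FDR 4.69e-06 in edgeR's test). Of the 22 genes 12 had their highest litter mean in litter B, and these were H19, Dlk1, Nnat, Asb4, Plagl1, Peg10, Calcr, Cdkn1c, Mest, Peg13, Ndn and Copg2. That is 54.5% of the called imprinted genes, beside 40.7% of all 5301 called genes. Litter B was the lowest litter for 5 of the 22 (22.7%), namely Snrpn, Begain, Osbpl5, Kcnk9 and Rasgrf1, beside 49.7% of all called genes. Cdkn1c, which restrains the cell cycle, was at 56.9 CPM in litter B and 41.6 CPM in litter A, and Peg10, a retrotransposon-derived gene, was at 61.2 CPM in litter B and 39.2 CPM in litter F.

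**Figure D4:**
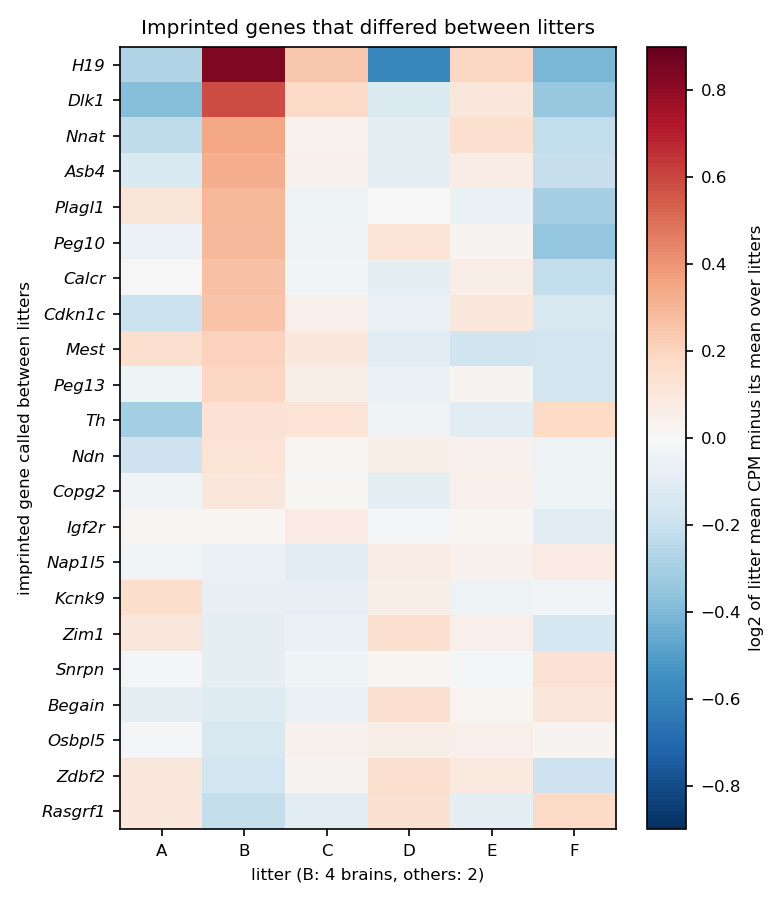
Rows are the 22 imprinted genes called between litters and columns the 6 litters. Colour gives the log2 of the litter mean CPM minus the gene's mean over litters, and litter B was highest at 0.84 for H19 and 0.59 for Dlk1 and lowest at -0.22 for Rasgrf1.

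Genes of the same domain did not share 1 pattern over the brains. For the 6 pairs of the 10 genes within a domain, Pearson's r and Spearman's rho of log2 CPM were taken over 14 brains with 100000 permutations each and adjusted over the 6 pairs, and since littermates are not independent the r of what remained after litter, sex and genotype was taken as well. Within-litter values could not be had, since a litter held 2 or 4 brains. The permutations of r and rho shuffled all 14 brains without regard to litter. Their p values treat littermates as independent and can be too small, so a pair that passed is a description of these brains. Meg3 and Rian varied together, with r = 0.65 (permutation p 0.0107, adjusted 0.0322) and rho = 0.71 (permutation p 0.00618, adjusted 0.0371). The r was 0.64 without the 2 brains farthest from the median of Meg3 and 0.81 in the residuals (permutation p adjusted 0.00231). Residuals of littermates offset each other, so this permutation treats as independent what is not. The p of the residuals is therefore too small, and only their r is read. Dlk1, the protein coding gene beside them, did not pass with either, with r = 0.14 for Meg3 and r = -0.13 for Rian (adjusted permutation p 0.65 for both). In the residuals its r was 0.38 with Meg3 and 0.15 with Rian. The pairs Snrpn with Ndn (r = -0.38, adjusted permutation p 0.279) and Ndn with Magel2 (r = 0.44, adjusted permutation p 0.229) did not pass either.

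Snrpn and Magel2 ran opposite to each other, with r = -0.75 (permutation p 0.00319, adjusted 0.0191), rho = -0.65 (permutation p 0.0146, adjusted 0.0439) and a residual r of -0.83 (permutation p adjusted 0.00138). The residual p is too small here for the same reason as for Meg3 with Rian. Without the 2 litter F brains, which are farthest from the median of Snrpn, r was -0.41, weaker than over all brains. The residual r was not taken without that litter, so its share in the relation is not settled. Snrpn was also low where Mest (r = -0.74), Nnat (r = -0.73) and Dlk1 (r = -0.73) were high. These pairs were picked from all 45 and describe brains that share their litter's level. The mean of litter B was lowest for Snrpn and highest for Mest, Nnat and Dlk1. Over all 45 pairs of the 10 genes r ran from -0.75 to 0.92 with a median of 0.21.

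**Figure D5:**
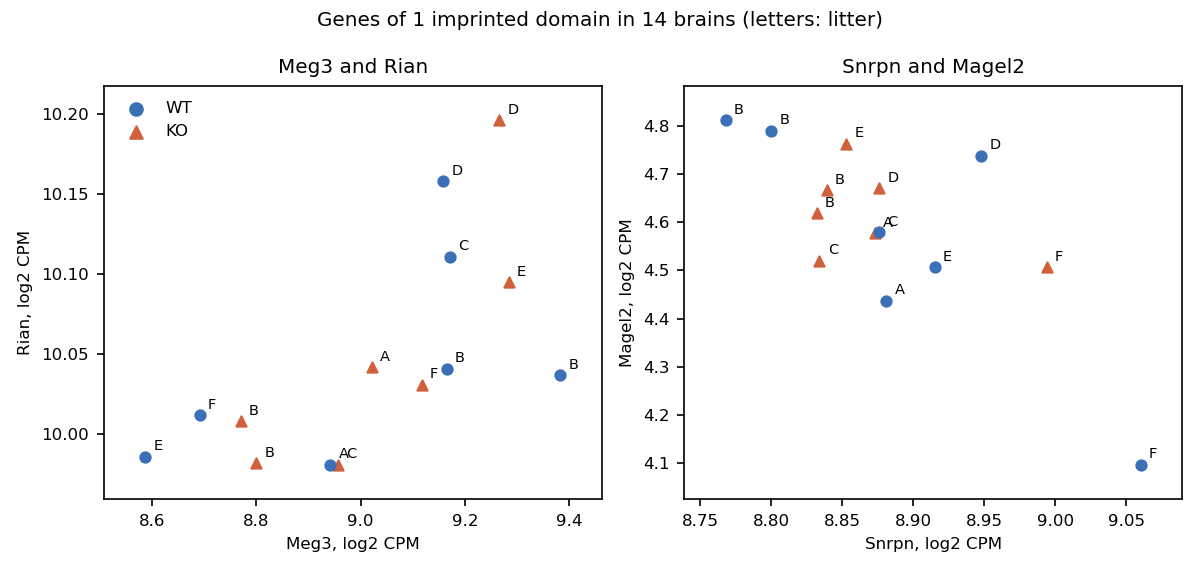
Log2 CPM of Rian against Meg3 and of Magel2 against Snrpn in 14 brains is plotted with WT as circles, KO as triangles and the litter as a letter. Meg3 and Rian varied together (r = 0.65), and the downward course of Magel2 with Snrpn (r = -0.75) had the WT brain of litter F at its end.

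Outside the imprinted lists, the gene whose log2 CPM followed each of these genes most closely over the 14 brains, among 15170 genes with a mean of at least 1 CPM, was Dusp4 for Dlk1 (Pearson r 0.988), Rbm39 for Nnat (0.970), Snhg11 for Meg3 (0.969) and 9330162G02Rik for Kcnq1ot1 (0.963). For Mest it was Phc3 (0.954), for Ndn Fam171a2 (0.945), for Snrpn Pcca (0.930), for Rian Slc2a4rg-ps (0.919), for Magel2 Ebf4 (0.908) and for Peg3 Ryr3 (0.837). These are the highest of many correlations and describe the 14 libraries alone.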

How the data were processed

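The study prepared ribosomal RNA depleted libraries from P2 brains. The methods name a ScriptSeq kit, STAR alignment and HTSeq counting, whereas the labels and the submitters' processing notes name a stranded TruSeq kit and featureCounts, both on GRCm38. The strand setting and the annotation release are not given in the sources used here. The authors deposited raw counts per gene, not normalized, for 17927 genes, and a table of symbols. These counts were labelled as filtered, and each library had a count for 17920 or more of the genes. Shares and ranks of all genes refer to the genes left after that filter. Genotype came from the labels, litter and sex from the column names. The same names show that WT and KO brains of equal replicate number are littermates, and deviations of the pairs correlated between -0.467 and 0.443 over 15227 genes. In litter B the pairs follow the replicate numbers alone and could be matched otherwise. Counts of pairs do not take this into account.

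The fit ran in edgeR 4.0.16 under R 4.3.3 (TMM scaling, no filter beyond a total of 1 count, default quasi-likelihood fit with litter, sex and genotype, two-sided, Benjamini-Hochberg over all genes, 0.05), after the calculation was tested on simulated data. DESeq2 1.42.0, limma-voom (limma 3.58.1), a likelihood ratio test, RLE factors, a filter on low counts, other covariates and fits without single libraries were alternatives, and the fit without litter B was added after seeing the data. Intervals are 95% from the t distribution of the fit. Log2 CPM used a prior count of 2. Permutations used Python 3.11.15 with numpy 2.4.6 and scipy 1.17.1. A total of 3 counts in the smallest library equals 0.0797 CPM. Of the genes, 17909 matched GENCODE M21, which gave positions and exon lengths. Promoter windows came from RefSeq on GRCm38.p6, where all 10 genes matched. Named genes are the 10, Capn15, imprinted genes that passed a test or belong to a domain described, genes that overlap a member, marker lists, and for each member the gene most like it. Plagl1, Zdbf2 and Nap1l5 are also given for their unadjusted p, and Ttr was named after its values were seen. The 10 genes and all lists were chosen with earlier results of these data known.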

Additional observations from a re-analysis of the deposited data

Results flagged for a closer look

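Within the 7 KO brains, Snrpn in the brain of litter F stood apart from the others. Its log2 CPM was 8.99 (509.99 CPM) and that of the nearest KO brain was 8.88, a gap of 0.725 of the whole KO range, above the value that Dixon's test at 95% allows for 7 samples. This was 1 of 20 groups compared, and chance alone gives about 1. The WT brain of the same litter also had the highest Snrpn of its group, 534 CPM. Litter F is the pair whose Capn15 levels went against the labels.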

How the results depend on the processing

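None of the 10 genes was called between genotypes or between sexes under any setting run, and in 90 fold changes under the other settings of the genotype fit 9 changed sign, all of them values near 0. Without both litter F libraries the log2 fold change (KO minus WT) was -0.054 for Meg3, -0.016 for Peg3, -0.020 for Magel2 and -0.023 for Dlk1, with genotype alone 0.0017 for Rian, -0.0071 for Peg3 and -0.0010 for Nnat, and with litter but not sex 0.0013 for Rian and -0.0065 for Peg3. The count of genes called between genotypes, 1 here (922 at an unadjusted p under 0.05), was 34 by the likelihood ratio test, 22 by DESeq2, 7 without litter F, 2 with litter but not sex and 0 with the replicate block in place of litter (811 at an unadjusted p under 0.05), and it ran from 0 to 7 when each library was left out in turn. No call of the 10 genes changed with the block, between genotypes or sexes. Between sexes 12 genes were called, 36 by the likelihood ratio test and 19 by DESeq2, and 11 to 16 with 1 library left out. Between litters 5301 were called, 3626 to 5770 with 1 library left out and 196 without litter B.

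With 1 library left out, the log2 fold change (KO minus WT) ran from -0.074 to 0.12 for Meg3, -0.037 to 0.027 for Rian, -0.024 to 0.038 for Peg3, -0.058 to 0.011 for Ndn, -0.023 to 0.080 for Magel2, -0.026 to 0.065 for Dlk1, -0.025 to 0.055 for Nnat, 0.053 to 0.197 for Mest and 0.093 to 0.70 for Kcnq1ot1, and female minus male from -0.14 to 0.041 for Meg3, -0.0074 to 0.065 for Rian, -0.0097 to 0.068 for Ndn, -0.019 to 0.052 for Magel2, -0.016 to 0.085 for Nnat, -0.21 to -0.095 for Mest and -0.88 to -0.20 for Kcnq1ot1. Between litters Rian passed by DESeq2 (FDR 0.0286) and without either litter C library (0.0405 and 0.0385), Magel2 by the likelihood ratio test (0.0199), by DESeq2 (0.0209) and without the KO library of litter F (0.0091), and Kcnq1ot1 without the WT library of litter D (0.0241). Of the correlations, Meg3 with Dlk1 was -0.055 and Rian with Dlk1 0.090 without the 2 brains farthest from the median, and in the residuals Rian with Dlk1 was 0.15 and Ndn with Magel2 -0.18. Snrpn with Magel2 was -0.41 without the 2 brains farthest from the median. The cause of these shifts was not tested. Depth limits Dlk1 and Magel2 most, which had the lowest counts of the 10 genes, and p-values rest on 14 brains with 2 per litter outside litter B.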
